A study of Mus musculus with 2 samples.

Results

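Mir139 is the gene of the hairpin that gives rise to miR-139-5p and miR-139-3p, and it lies inside the phosphodiesterase gene Pde2a. It was picked from the 2202 miRNA genes of the study because its abundance was high, so its level is given as a description with no test. The samples were 2 adrenal glands, labelled as coming from 2 numbered females of the hybrid mouse strain B6CASTF1/J at 2 months of age, and they form the only group of the study. No treatment, genotype or second tissue was named. A single donor label is given for both, so only the tissue labels and replicate numbers say that they are separate animals, and the SDs measure the spread between these samples, which may be technical. The assay was microRNA-seq of total RNA in a size range below 30. Values are read counts on the strand of the gene, and the same counts scaled to a gene total of 1000000 (CPM). In such libraries a read covers a mature strand from end to end, so levels were not divided by hairpin length unless stated.

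An intronic miRNA is often transcribed with its host gene. Its hairpin is released from the transcript by Drosha and trimmed by Dicer, and 1 of the arms is kept by an Argonaute protein. The kept strand finds messenger RNAs mainly through its seed, bases 2 to 8. PDE2A, the product of the host gene, breaks down cyclic AMP and is stimulated by cyclic GMP. In the zona glomerulosa, the outer layer of the adrenal cortex that makes aldosterone, it is known as the enzyme through which atrial natriuretic peptide lowers cyclic AMP. miR-139-5p is known mainly from cancer studies, where it is often reduced and where the growth factor receptor gene IGF1R is among its described targets. The counts cover miRNA genes only, so neither Pde2a messenger RNA nor any zone marker of the cortex was measured.

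The sequences of the hairpin and of both arms are shown because the counts are summed over the whole hairpin and cannot separate the arms. They were taken from RefSeq (GRCm38.p6, the assembly also called mm10) and are written from 5′ to 3′. Capitals mark the mature arms in the hairpin and the seed in each arm.
Mir139 hairpin: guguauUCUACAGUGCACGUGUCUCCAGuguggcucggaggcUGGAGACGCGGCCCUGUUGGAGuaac
mmu-miR-139-5p: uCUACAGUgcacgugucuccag
mmu-miR-139-3p: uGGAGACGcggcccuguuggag
The 68-base hairpin (ENSMUSG00000065446.1) occupies chromosome 7 from 101475376 to 101475443 on the plus strand. The 5p arm spans 101475382 to 101475403 and the 3p arm 101475418 to 101475439, both 22 bases long and both starting with U. A start with U on both arms was found in 110 (17.1%) of the 644 RefSeq hairpins for which both arms were given.

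Pde2a (ENSMUSG00000110195.1) runs from 101421691 to 101512827 on the same strand, and Mir139 begins 53.7 kb downstream of its start, after 58.9% of its length. All 4 protein-coding transcripts of Pde2a carry Mir139 in their intron 2, which is 29902 bases long (101451469 to 101481370) and lies within the coding part of each. The hairpin sits 23907 bases into that intron and 5927 bases before its end. Of all 12 annotated Pde2a transcripts, 10 span the hairpin, each within an intron, and the other 2 do not reach it. No exon of Pde2a overlapped the hairpin, and Mir139 was the only miRNA gene annotated inside Pde2a. A second protein-coding gene model, Gm45837 (101410886 to 101512819), overlaps the same locus on the same strand, so the host transcript cannot be assigned to 1 gene model from these data.

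**Figure D1:**
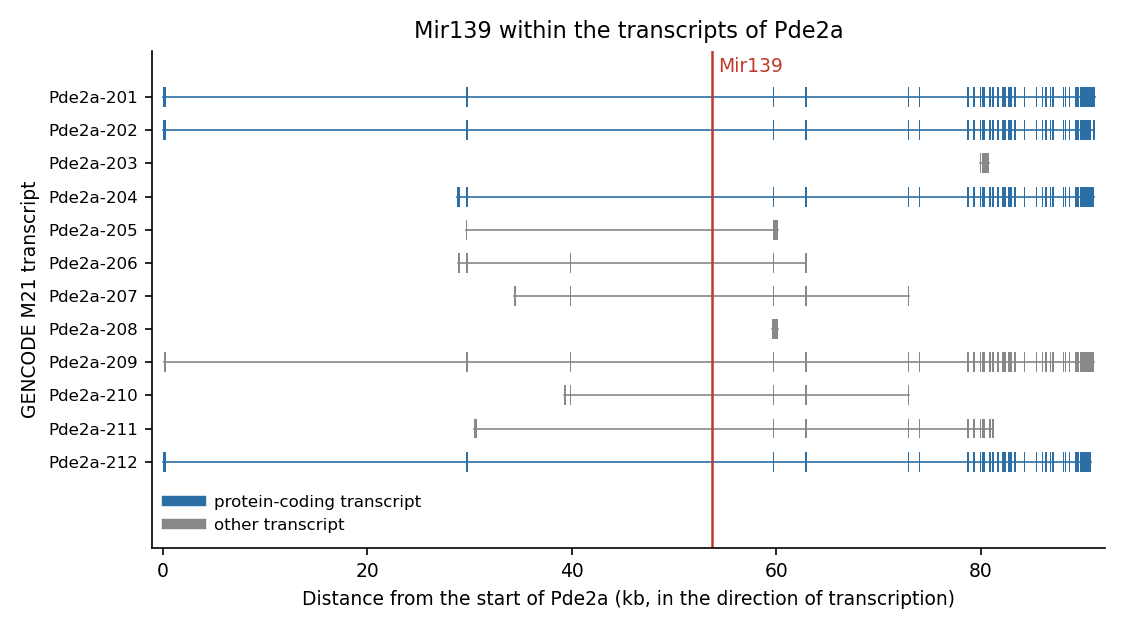
The 12 GENCODE M21 transcripts of Pde2a drawn to scale, with boxes for exons, lines for introns and distance from the gene start in kb on the horizontal axis. The red line marks Mir139 at 53.7 kb, which crosses an intron in 10 transcripts and meets no exon.

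Mir139 was counted 122906 times in replicate 1 (exact 95% Poisson interval 122220 to 123595) and 83810 times in replicate 2 (83243.5 to 84379.4). Scaled to the 2839732 and 2280028 gene counts of the libraries, this was 43280.8 CPM in replicate 1 and 36758.3 CPM in replicate 2. The mean was 40019.6 ± 4612 CPM (SD, n = 2), with a coefficient of variation of 11.5%. Mir139 thus held 4.33% of the gene counts of replicate 1 (Clopper-Pearson 95% interval 4.30 to 4.35) and 3.68% of those of replicate 2 (3.65 to 3.70). Its level was higher in replicate 1 than in replicate 2, and the intervals of the counting error do not overlap. In bulk tissue a smaller number of cells of a type and less RNA per cell cannot be told apart. Intervals cover counting error only, since no molecular identifiers were stated.

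The median detected miRNA gene, with detection set at 10 or more counts in both libraries, had a mean of 130.5 CPM over 342 genes. Mir139 was 307-fold above that median and 3.34-fold below Mirlet7b, the gene of highest mean. By mean CPM, from counts without reads that align to several places, it ranked 6 of 2202 genes. It ranked 5 in replicate 1 and 8 in replicate 2. The 6 genes from Mirlet7b to Mir139 together held 40.7% of the mean profile. Divided by hairpin length, a scale added after the data were seen, the mean level of Mir139 again ranked 6.

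**Figure D2:**
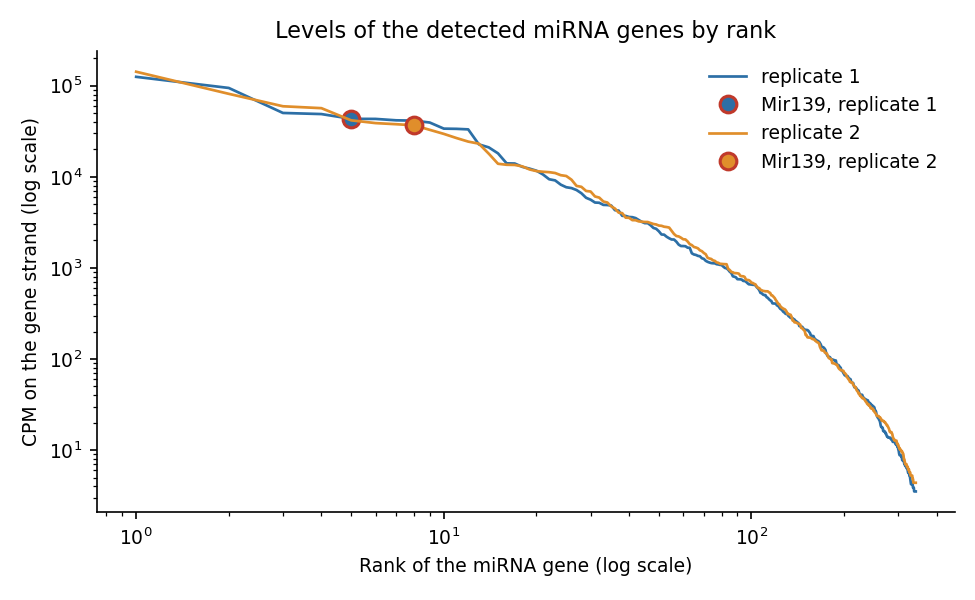
Level in CPM against rank, both on log scales, for the 342 detected miRNA genes in replicate 1 (blue) and replicate 2 (orange). The circled points are Mir139, at 43280.8 CPM and rank 5 in replicate 1 and at 36758.3 CPM and rank 8 in replicate 2.

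All Mir139 reads lay on the strand of the gene. The counts taken without regard to strand were the same 122906 and 83810, and the opposite strand had 0 counts in both libraries. A count of 0 allows up to 3 counts, which is 0.00244% of the sense counts in replicate 1 and 0.00358% in replicate 2. No miRNA gene is annotated opposite Mir139. By contrast, Mir378a and Mir126a, which rank above it on the gene strand, overlap miRNA genes on the other strand, and without regard to strand Mir139 ranked 4.

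Reads that align to several places were left out of all gene counts, and they numbered 94.2 and 96.2 per 100 gene counts in replicates 1 and 2. The Mir139 hairpin holds 49 stretches of 20 bases, and none of them was found on either strand in the 141766 other transcripts of GENCODE M21. Neither complete arm was found there either. Among the 342 detected miRNA genes, 81 (23.7%) share a stretch of 20 bases with another counted hairpin, and Mir139 is not among them. Such genes can lose reads that Mir139 keeps. The ranks, shares and folds of Mir139, also among intronic genes, can therefore be overstated. The search covered annotated transcripts and not the whole genome, and reads with mismatches were not considered.

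Of the genes next to Mir139 in level, 3 exceeded it in both libraries. Mirlet7b, of the let-7 family that promotes differentiation, was at 125109 and 142320 CPM in replicates 1 and 2. Mirlet7g, of the same family, was at 94450.5 and 81426.6 CPM. Mir378a, within the metabolic coactivator gene Ppargc1b, was at 48825.4 and 56680 CPM. Each differed from Mir139 in mean level by more than the sum of the 2 genes' SDs.

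The order of Mir139 and most of the next genes depended on the library. Mir126a, the endothelial miRNA within Egfl7, was at 43202.7 CPM in replicate 1, where its counting interval overlapped that of Mir139, and at 59462.9 CPM in replicate 2. The level of Mir139 was 1.00 times that of Mir126a in replicate 1 and 0.618 times in replicate 2. Mirlet7i was at 41368.3 and 41662.6 CPM, the smallest SD among these genes (208 CPM). Mir375, a miRNA of pancreatic islets and other neuroendocrine cells, was at 39421.0 and 37779.8 CPM. Mirlet7d was at 41696.5 and 32821.5 CPM, below Mir139 in both libraries. Mir10a, from the Hoxb cluster, was at 33786.3 and 38860.0 CPM.

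Mir22 was the gene of this range that differed most between the libraries, at 50215.3 and 12041.1 CPM. It was the only gene above Mir139 in replicate 1 alone, and Mir126a, Mirlet7i, Mir375 and Mir10a were above it in replicate 2 alone. Mir139 therefore could not be ordered against Mir126a, Mirlet7i, Mir375, Mir10a or Mir22, whose means lay within the sum of the SDs. Mirlet7d was below Mir139 in both libraries, though by a difference in means within that sum. The first gene below that differed by more than this was Mir23b, at 33164.4 and 26618.1 CPM. The remaining 2193 genes, Mirlet7d and Mir23b among them, lay below Mir139 in both libraries.

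**Figure D3:**
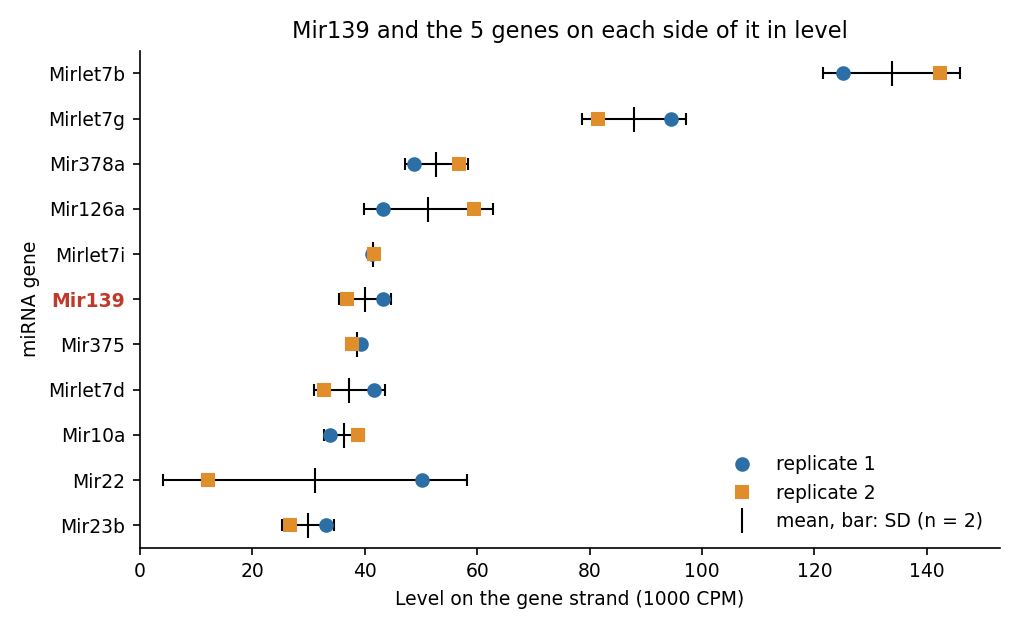
Levels, in units of 1000 CPM, of Mir139 and the 5 genes above and below it by mean level, with a circle for replicate 1, a square for replicate 2, and the mean with its SD (n = 2). Mir139 overlaps Mir126a, Mirlet7i, Mir375, Mirlet7d, Mir10a and Mir22, while Mirlet7b, Mirlet7g and Mir378a lie to its right in both libraries.

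Likeness to Mir139 was measured over the 2 samples as the distance between genes in log2 CPM of replicate 1 and log2 CPM of replicate 2, among 554 other genes with counts in both. The nearest were Mir375 (distance 0.14), Mirlet7d (0.17), Mirlet7i (0.19), Mir10a (0.37) and Mir23b (0.60), against a median distance of 15.9. With 2 samples this describes similar levels only. The 5p arms of Mirlet7i, Mirlet7d and Mir10a are shown to compare seeds. Capitals mark bases 2 to 8, and the 3 seeds shown differ from both seeds of Mir139.
mmu-let-7i-5p: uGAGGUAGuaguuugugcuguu
mmu-let-7d-5p: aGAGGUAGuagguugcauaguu
mmu-miR-10a-5p: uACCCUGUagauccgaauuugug
The 2 let-7 arms shown share a seed with each other. In the RefSeq table of 1738 mature sequences, which is not complete, no other mature miRNA had the seed of miR-139-5p or that of miR-139-3p. The first 6 bases of the 3p seed were shared with miR-6397, shown with those bases in capitals.
mmu-miR-6397: uGGAGACuuucaguggaguga
Mir6397 had 0 counts in both libraries, which allows up to 1.06 CPM in replicate 1 and 1.32 CPM in replicate 2.

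The next comparison asked how far the level of Mir139 differed between the libraries, which the choice of the gene did not use. The ratio of replicate 2 to replicate 1 was 0.849 (exact 95% interval 0.842 to 0.857), or 1.18-fold higher in replicate 1 (log2 ratio -0.24). By an exact two-sided binomial test of the counts, with Benjamini-Hochberg adjustment over the 369 genes averaging 10 or more counts, the adjusted p was 1.39e-292. That test compares 2 libraries and covers counting error only. An adjusted p under 0.05 was reached by 62.6% of the genes tested. A gene was called where the adjusted p was under 0.05 and the libraries differed 2-fold or more, which 18.7% of the genes reached and Mir139 did not. No test over samples was possible with 1 group of 2 samples.

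With scaling to gene totals, the size of the Mir139 difference was below that of most genes. The median size of the log2 ratio was 0.45 over all genes tested and 0.24 for Mir139, and 109 genes (29.5%) had a smaller one. Among the 50 genes of highest mean CPM, 17 had a smaller difference, the median size was 0.29 and the median coefficient of variation was 14.3%. Of those 50 genes, 5 were called (background 18.7%) and 22 were lower in replicate 2, as were 169 (45.8%) of all genes tested. The median log2 ratio of all genes was 0.07, so Mir139 lay 0.31 below it. TMM scaling moved all log2 ratios by -0.12 and median-of-ratios scaling by -0.16, which put Mir139 at -0.35 and -0.40. Sizes of log2 ratios change with such a shift, and the order by size is given for gene totals only. Mir139 was lower in replicate 2 under each of these scalings, and its distance from the median gene is unaffected by such a shift.

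**Figure D4:**
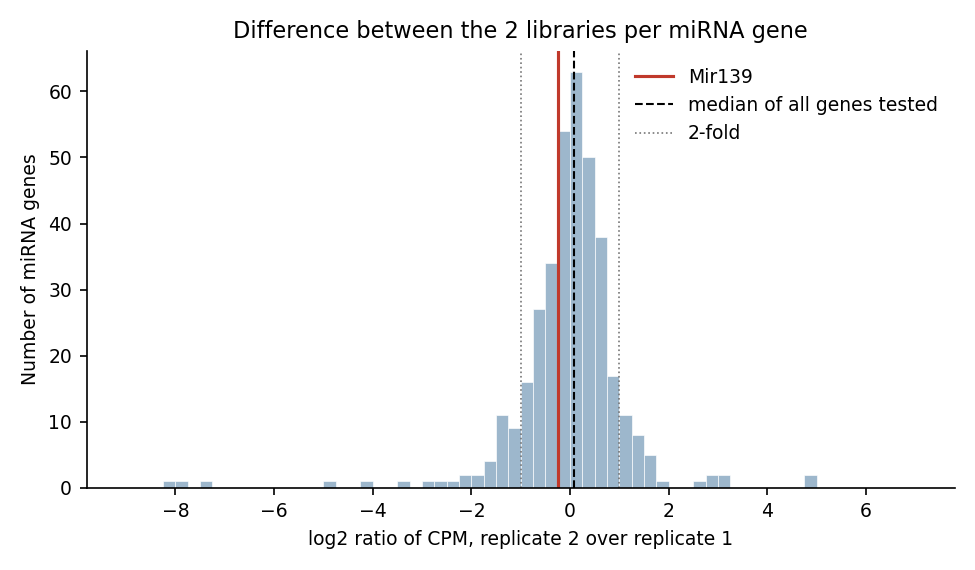
Number of miRNA genes by log2 ratio of CPM in replicate 2 over replicate 1, for the 369 genes averaging 10 or more counts. The red line marks Mir139 at -0.24, the dashed line the median gene at 0.07, and the dotted lines a 2-fold difference, which Mir139 does not reach.

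Some lists of cell type marker miRNAs held genes called between the same libraries, and others held none. The summed level of 9 skeletal and heart muscle miRNAs was 953 CPM in replicate 1 and 4.39 CPM in replicate 2, with 3 of 3 tested members called as higher in replicate 1 (background 10% in that direction). None of the 9 reached 10 counts in both, and 3 were at 0 in each. The copies of Mir1a and Mir133a lose reads that align to several places, so this sum can be too low. The 4 erythroid miRNAs summed to 649 and 14491 CPM, with 2 called as higher in replicate 2 (background 8.67%). Endothelial miRNAs, nearly all from Mir126a, summed to 43207.6 and 59465.1 CPM with none called. The 7 smooth muscle and fibroblast miRNAs summed to 23180 and 25529.1 CPM, and the chromaffin and neuroendocrine miRNAs, 93.1% of them Mir375, to 42775.5 and 40149.5 CPM, again with none called.

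Of the chromaffin and neuroendocrine list, 4 of 10 members were detected, namely Mir375, Mir7b, Mir7-1 and Mir7-2, and the other 6, copies of Mir9 and Mir124, were at 0. Such copies share a mature sequence, and reads that align to several places are not in the counts. White blood cell miRNAs summed to 1331 and 1051 CPM, with 1 of 4 tested members called as higher in replicate 1 (background 10%). Mir122, the liver miRNA, was at 3721 and 2358 CPM, and 5 kidney miRNAs summed to 119 and 104 CPM, with none of either list called. Without the muscle and blood cell miRNAs in the denominator, Mir139 was at 40373.5 ± 4292 CPM and its ratio was 0.860. That change of denominator moves all log2 ratios by only 0.018. What muscle or blood added to the other counts was not tested.

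A list of miRNAs that studies of cortical or other steroid-making cells have described, none of them specific to the cortex, gave the tissue setting of Mir139. All 15 members were detected, against 342 of all 2202 genes. Only 5 genes of the study had a higher mean than Mir139, and none of them was in the list. That order follows largely from the choice of Mir139 for its abundance. The summed level of the 15 members was 67440 CPM in replicate 1 and 45640 CPM in replicate 2. Mir139 alone stood at 0.642 and 0.805 times the whole list. The copies of Mir24 and Mir125b lose reads that align to several places, so their means and the sum can be too low. Both ratios can then be too high. Mir21a, reported to be induced by angiotensin II in cortical cells, led the list with 33612 and 13012 CPM, below Mir139 in both libraries. Mir10b followed at 13981 ± 106 CPM, then Mir320 at 6301 ± 2064 CPM and Mir125a at 5770 ± 3436 CPM.

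In that list 5 of 15 members were called as higher in replicate 1, none as higher in replicate 2, and 10 were not called (background 10% in replicate 1 and 8.67% in replicate 2). The 5 were Mir21a, Mir125a, Mir132, Mir24-2 and Mir483. Mir24-2 shares its mature miRNA with Mir24-1, so its counts hold only reads that differ, and Mir483 had 63 and 25 counts. The median log2 ratio of the list was -0.51, against 0.07 over all genes tested and -0.24 for Mir139. Replicate 1 was also the library with more of the muscle miRNAs, and their part in these ratios was not tested.

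Mir139 was then set beside the other miRNA genes that lie, as it does, in an intron of a protein-coding gene on the same strand. There were 772 such genes in the tables, of which 122 were detected and 414 were at 0 in each library. Of all 2202 genes, 342 were detected and 1463 were at 0 in each library. Together the 772 genes held 42.0% of the gene counts in replicate 1 and 42.3% in replicate 2. Mir139 held 10.3% of these intronic counts in replicate 1 (10.26 to 10.37) and 8.70% in replicate 2 (8.64 to 8.76), a mean of 9.51% ± 1.14 (SD, n = 2). It ranked 4 of the detected intronic genes by mean, 3 in replicate 1 and 4 in replicate 2.

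The 5 intronic genes of highest mean were Mirlet7g in Wdr82, Mir378a in Ppargc1b, Mir126a in Egfl7, Mir139 in Pde2a and Mir23b in a gene annotated as 2010111I01Rik, and they made up 62.3% of the detected intronic level. Mir139 was 1.34-fold above Mir23b and 2.53-fold above Mir26b in Ctdsp1, at 15796.5 ± 3251 CPM, the next gene. The median detected intronic gene was at 129.8 CPM, 308-fold below Mir139. Of 137 intronic genes tested between the libraries, 18 were called as higher in replicate 2 (background 8.67%) and 17 as higher in replicate 1 (background 10%). Their median log2 ratio was 0.19, against 0.07 over all genes tested. Mir139, at -0.24, lay below both medians and was not among the calls.

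**Figure D5:**
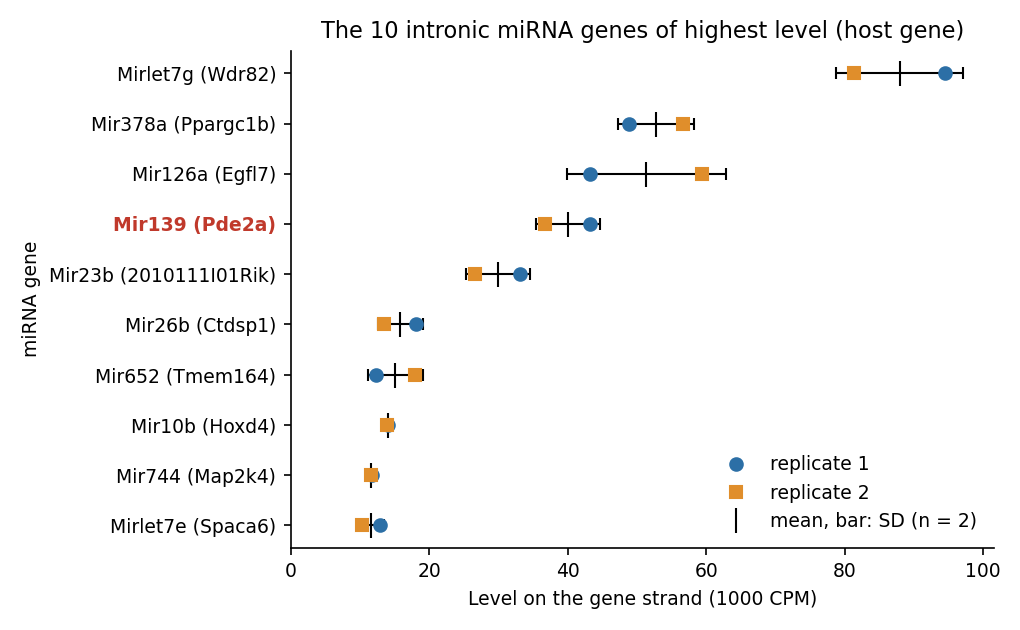
Levels, in units of 1000 CPM, of the 10 intronic miRNA genes of highest mean, each with its host gene in parentheses, with a circle for replicate 1, a square for replicate 2, and the mean with its SD (n = 2). Mir139 in Pde2a is the fourth from the top, between Mir126a and Mir23b.

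On its stretch of chromosome 7, Mir139 had by far the highest level of the miRNA genes. Of the 6 other miRNA genes within 2000000 bases, 4 (Gm22655, Gm25171, Gm23550 and Gm25774) had 0 counts in both libraries. Over the whole study 1463 of 2202 miRNA genes had 0 counts in both, so such zeros were common. Mir3102, in an intron of Arhgef17 and 593 kb before Mir139, had 995 and 1263 counts, or 452 ± 144 CPM. Mir326, in an intron of the beta-arrestin gene Arrb1 and 1923 kb before it, had 281 and 344 counts, or 125 ± 36.7 CPM. Both were higher in replicate 2, by ratios of 1.58 and 1.52, and neither was called. Of the 153 miRNA genes on the chromosome 20 were detected, against 342 of all 2202. Mir139 had the highest level of the 153, and it held 90.6% and 87.0% of the counts on that chromosome. The next gene there, Mir708 in an intron of Tenm4, was at 1476 ± 281 CPM.

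Other miRNA genes lie inside genes whose symbol starts with Pde and a number, and these were looked up after the values of Mir139 were known. Gm44413 in Pde1c and Mir1904 in Pde4d had 0 counts in both libraries. Mir582, also in an intron of Pde4d, had 2 counts in each library. Mir7672 in Pde12 had 1 and 2 counts. Mir7225 in Pde4dip, a gene named as interacting with a phosphodiesterase, had 0 counts in both. All 5 were below the detection limit of 10 counts, which only 342 of all 2202 miRNA genes reached in both libraries.

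The hairpin itself was compared with those of all 342 detected genes. At 68 bases it was shorter than the median of 84 bases, and 13.7% of the hairpins were shorter still. Its GC content was 58.8% against a median of 50.6%, and 78.9% of the hairpins had a lower one. The minimum free energy predicted by ViennaRNA was -35.6 kcal/mol, close to the median of -36.7, while per base it was -0.52 against a median of -0.43. In the predicted fold 19 of the 22 bases of miR-139-5p pair with bases of miR-139-3p. The loop between the arms is 14 bases long and begins with UGU, a motif known from the apical part of many hairpins. UGU occurred in 203 (31.5%) of the 644 loops with both arms given and in 30 (36.1%) of the 83 loops of the same length, searched on the RNA strand only.

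Matches to the seeds were searched in the messenger RNA of the host on its own strand. The 7 bases ACTGTAG pair with the seed of miR-139-5p and CGTCTCC with that of miR-139-3p, and the motifs do not overlap each other. Neither was found in the 3′ UTRs of the 4 coding Pde2a transcripts, which were 861 to 1164 bases long. The match to miR-139-5p was present in the longest 3′ UTR of 9.20% of the 3075 genes with 3′ UTRs of like length, and the match to miR-139-3p in 2.54%. The result says only that these letters are not in these windows.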

How the data were processed

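Small RNA libraries of 2 adrenal gland samples from 1 group were analysed. The deposited values were read counts per miRNA gene, made by the authors and not normalized, in a table per sample with a column for either strand, a column for the gene strand and a column for the opposite strand. Assembly mm10 and GENCODE release M21 were used, per the deposited sample information. Aligner and counter are not given in the sources used here. The strand column with the larger total was used. The 4 rows that name no gene (unmapped, multiply aligned, outside genes, ambiguous) were kept out, and held 69.4% and 73.7% of the 9278190 and 8659511 reads of replicates 1 and 2. All 2202 gene identifiers matched GENCODE M21, and 4 names of the marker lists were matched through RefSeq synonyms.

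Counts were scaled to 1000000 gene counts (CPM), so 1 count was worth 0.352 and 0.439 CPM. Intronic means wholly inside a protein-coding gene on the same strand and outside all exons of its coding transcripts. Libraries were compared per gene by the exact two-sided binomial test (SciPy 1.17.1) with Benjamini-Hochberg adjustment over genes averaging 10 or more counts. Genes were called at an adjusted p under 0.05 and at least 2-fold. The rule was tried on Poisson counts simulated for the comparison of replicate 2 with replicate 1 over 369 genes. It called 98 of 100 genes changed 4-fold, 0 of 100 changed 1.5-fold and 1 of 169 unchanged. The simulation held counting error only, so it gives no rate of false calls between these samples. A chi-square statistic of 203204 on 368 degrees of freedom showed that the tables differ by more than sampling noise. Scaling alternatives came from edgeR 4.0.16 (TMM) and DESeq2 1.42.0 (size factors), and folds from ViennaRNA 2.7.2. Sequences came from RefSeq (GRCm38.p6).

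Genes were named by rule: the 5 on each side of Mir139 by mean CPM, the 5 nearest in log2 CPM over both samples, the 5 highest intronic genes, all within 2000000 bases, and those sharing a seed. Other genes were named after their values were seen, among them list members, further intronic genes and those in other phosphodiesterase genes. The gene, the lists and the rules were chosen with earlier results of these data known. Alternatives were unstranded counts, other scalings and denominators, other count filters, gene bodies in place of introns, and each replicate alone.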

Additional observations from a re-analysis of the deposited data

How the results depend on the processing

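The mean level of Mir139 was 46423 CPM with unstranded counts and 11463 when scaled to 1000000 reads of any kind. Both denominators differ by construction. It was within 1 SD of the main value with TMM, with median-of-ratios scaling and without muscle and blood cell miRNAs. Leaving out each replicate gave 36758.3 to 43280.8 CPM, ranks of 5 to 8, intronic ranks of 3 to 4 and intronic shares of 8.70% to 10.3%. With unstranded counts the intronic rank was 2 and the intronic share 13.3%, and over gene bodies with exons the share was 8.27%. The ratio of replicate 2 to replicate 1 stayed between 0.731 and 0.883 in all 7 alternatives, below 1 and short of 2-fold. The genes called between the libraries numbered 69 (32 higher in replicate 2, 37 in replicate 1) and 33 among the 234 genes averaging 100 or more counts. Median-of-ratios size factors gave 23 genes higher in replicate 2 against 45 in the other direction. No paired analysis was possible because the study has 1 group.

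Depth does not limit the counts of Mir139, and the 2 samples limit its SD. The arms, the allele of origin in the hybrid strain and the host transcript were not analysed here.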
